A study of Arabidopsis thaliana with 16 samples.

Results

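The comparison described here is the transcript response to activation of ARR1 in Arabidopsis thaliana seedlings that had been given gibberellin. Its members were chosen by the sample titles and are 4 of the 16 arrays of the series: 2 arrays of the line 35S::ARR1ΔDDK:GR with paclobutrazol, GA3 and dexamethasone (PAC+GA3+DEX), and 2 of the same line with paclobutrazol and GA3 only (PAC+GA3). The line expresses, from the constitutive 35S promoter, a form of ARR1 without its regulatory DDK domain, fused to the hormone-binding part of the glucocorticoid receptor (GR). Whole seedlings were moved at 5 days of age to 10 µM paclobutrazol (PAC) with 50 µM GA3 for 18 h and harvested at 6 days. The PAC+GA3+DEX seedlings also received 5 µM dexamethasone (DEX) for 3 h. Both groups therefore carried the transgene and both had PAC and GA3, and by their labels they differed in DEX only. Comparators were the same line with PAC but no GA3, with DEX (PAC+DEX) or without (PAC), and wild type Columbia-0 with DEX only or left untreated, with 2 arrays in each. The remaining arrays of the series were wild type given PAC and the cytokinin benzyladenine (5 µM for 3 h), with or without GA3. They were not compared here, but they entered the filter on dim probe sets, the principal components and the spread that the tests use. No wild type group with PAC, GA3 and DEX was analysed here, so an effect of DEX itself in the presence of PAC and GA3 cannot be told apart from that of the fusion protein. The annotation used pairs no tested probe set with ARR1, and the transgene was therefore not checked by its own transcript.

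ARR1 is a type-B response regulator, a DNA-binding transcription factor at the end of the cytokinin phosphorelay. Removal of its DDK domain makes it independent of phosphorylation, and the GR fusion is held in the cytosol until DEX is bound, so that DEX stands in for the cytokinin signal at the level of one factor. Type-A response regulators are immediate targets of type-B factors and dampen the same pathway. PAC blocks gibberellin synthesis and lets DELLA proteins accumulate, while GA3 leads to their degradation, so the seedlings compared here had GA3 to remove DELLAs.

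Expression was measured as log2 GCRMA values on Affymetrix ATH1 arrays, and each value below is such a log2 level or, where stated, a difference of log2 levels. The lowest value on every array was 2.36. The correlation of 2 replicate arrays over probe sets (not independent of each other) was 0.973 for PAC+GA3+DEX and 0.985 for PAC+GA3, and 0.968 to 0.985 over all groups. On the first principal component (38.2% of variance) the PAC+GA3+DEX arrays lay at 27.2 and 42.1 and the PAC+DEX arrays at 30.1 and 32.2, with all other arrays at 8.32 or below. Biological replicates is all that the labels say of the arrays' origin, and the tests measure the spread between these samples. Levels come from whole seedlings, where fewer cells of a type and less RNA per cell cannot be told apart. Of 7 root marker genes 3 were tested, and by limma 0 were called and 0 had an unadjusted p under 0.05. Levels of PYK10, a beta-glucosidase of roots, were 11.42 and 11.18 in PAC+GA3+DEX seedlings and 11.15 and 10.93 in PAC+GA3 seedlings. The 7 shoot markers and the 5 embryo and seed markers had no tested probe set under their name.

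With GA3 present, a large part of the measured transcriptome of the line differed between seedlings with and without DEX. Of 9454 probe sets tested, 1707 (18.1%) passed an adjusted p under 0.05 with limma, 983 of them higher in PAC+GA3+DEX seedlings (10.4%) and 724 lower (7.66%). The increases reached further than the decreases: 51 probe sets were called at least 4-fold higher and 20 of those at least 8-fold, against 10 at least 4-fold lower. All 1707 had both PAC+GA3+DEX arrays on one side of both PAC+GA3 arrays, as had 30.2% of all probe sets tested on the higher side and 30.5% on the lower side. In 205 of the probe sets called higher both PAC+GA3 arrays lay under the level of 4 used as the filter, and in 166 called lower both PAC+GA3+DEX arrays did, so these fold changes have one side close to background. Leaving out PAC+GA3 array 1 gave 797 calls, leaving out PAC+GA3 array 2 gave 972 and leaving out PAC+GA3+DEX array 2 gave 694.

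Type-A response regulators were among the largest increases. RR16 (AT2G40670) had levels of 10.10 and 10.29 in PAC+GA3+DEX seedlings, against 5.21 and 4.99 in PAC+GA3 seedlings. This was a 34.2-fold difference (log2 5.10 ± 0.25 SE, limma adjusted p = 5.07e-07, n = 2 each), with the groups far apart. ARR15 had levels of 6.73 and 6.85 in PAC+GA3+DEX seedlings, against 2.71 and 2.41 in PAC+GA3 seedlings, where it was near the lowest value of the arrays (log2 difference 4.23 ± 0.29 SE, adjusted p = 3.16e-06). RR16 and ARR15 were the members of this family of 10 loci that had a probe set with a single gene name and were tested, and both rose. UGT76C2, which glucosylates cytokinins at the ring nitrogen and so inactivates them, had levels of 5.50 and 5.74 in PAC+GA3+DEX seedlings, against 3.13 and 3.38 in PAC+GA3 seedlings (log2 difference 2.37 ± 0.19 SE, adjusted p = 1.48e-05). It was the member of the 27 cytokinin metabolism loci that could be tested by name. No receptor, phosphotransfer protein, type-B regulator or cytokinin response factor had a tested probe set under its name, so the response of the upstream pathway is not described.

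The other large increases covered proteins of several kinds. AT3G62930, a glutaredoxin of the plant-specific CC type, had levels of 7.30 and 8.08 in PAC+GA3+DEX seedlings, against 3.46 and 3.09 in PAC+GA3 seedlings (log2 difference 4.42 ± 0.47 SE, adjusted p = 0.000105). AT1G21520 followed with 7.25 and 7.92 in PAC+GA3+DEX seedlings and 3.65 and 3.90 in PAC+GA3 seedlings, a log2 difference of 3.81. AT3G15720, a pectin lyase-like protein, had 7.33 and 7.46 in PAC+GA3+DEX seedlings and 4.26 and 4.23 in PAC+GA3 seedlings (log2 difference 3.15 ± 0.21 SE, adjusted p = 2.36e-06). Within each of these groups the replicates lay close together relative to the gap between groups. AT3G15357 reached 7.36 and 7.27 in PAC+GA3+DEX seedlings, against 4.25 and 4.69 in PAC+GA3 seedlings. AT4G03610 reached 5.14 and 5.37 in PAC+GA3+DEX seedlings, against 3.00 and 2.71 in PAC+GA3 seedlings. The heavy metal-associated domain protein AT5G52760 had the widest spread of the 15 leading increases, with 4.89 and 7.75 in PAC+GA3+DEX seedlings against 3.54 and 3.28 in PAC+GA3 seedlings. Its log2 difference of 2.91 (adjusted p = 0.00945) was 4.34 without PAC+GA3+DEX array 1 and 1.48 without PAC+GA3+DEX array 2, where the adjusted p was 0.0621, and its adjusted p was 0.0595 without PAC+GA3 array 2. With DEX in wild type AT5G52760 differed by 1.42 and was not called, and its line minus wild type (1.49) was not called either. The remaining 6 of the 15 are described with the wild type below. A probe set that the annotation pairs with no single gene, 252374_at, headed the whole comparison with 8.01 and 8.14 in PAC+GA3+DEX seedlings against 3.25 and 2.56 in PAC+GA3 seedlings. Another of that kind, 248729_at, had 6.68 and 6.27 in PAC+GA3+DEX seedlings and 2.46 and 2.88 in PAC+GA3 seedlings, and its log2 difference was 3.80 in the line and 3.75 in wild type.

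**Figure D1:**
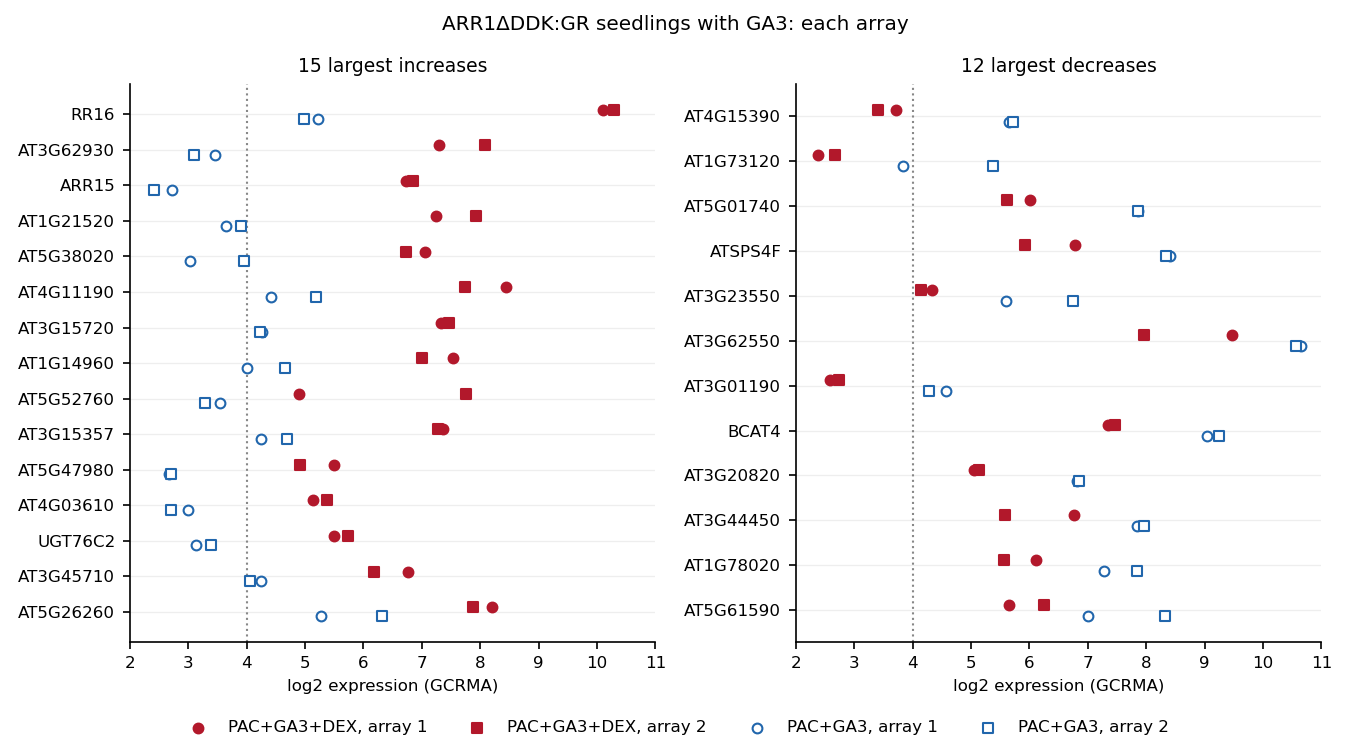
Log2 expression (GCRMA, horizontal axis) of the 15 genes with the largest called increases (left) and the 12 with the largest called decreases (right) in ARR1ΔDDK:GR seedlings with GA3. Filled red symbols are the 2 PAC+GA3+DEX arrays, open blue symbols the 2 PAC+GA3 arrays, and the dotted line marks the filter at 4. For every gene both red symbols lie on one side of both blue symbols, as the choice of genes required, and the AT5G52760 symbols of the PAC+GA3+DEX arrays lie at 4.89 and 7.75.

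The 12 leading decreases were smaller, from −2.12 to −1.71 on the log2 scale. ATSPS4F, a sucrose phosphate synthase, had levels of 6.78 and 5.93 in PAC+GA3+DEX seedlings, against 8.42 and 8.33 in PAC+GA3 seedlings (log2 difference −2.02 ± 0.33 SE, adjusted p = 0.00134). AT4G15390, a BAHD acyltransferase, had 3.72 and 3.40 in PAC+GA3+DEX seedlings and 5.65 and 5.72 in PAC+GA3 seedlings (log2 difference −2.12 ± 0.22 SE, adjusted p = 9.36e-05). AT3G20820, a leucine-rich repeat protein, had 5.04 and 5.13 in PAC+GA3+DEX seedlings and 6.81 and 6.84 in PAC+GA3 seedlings. None of these overlapped between the groups, as the choice of genes required. AT5G01740 had 6.02 and 5.62 in PAC+GA3+DEX seedlings and 7.85 and 7.86 in PAC+GA3 seedlings. AT1G78020, which encodes an FLZ zinc finger protein, had 6.12 and 5.57 in PAC+GA3+DEX seedlings and 7.27 and 7.84 in PAC+GA3 seedlings. The unnamed probe sets 245399_at, 257008_at and 247549_at had the largest decreases of that kind, with log2 differences of −2.40, −2.27 and −2.26.

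In 6 further genes of the 12 the call was lost or the value moved when 1 array was left out. BCAT4, an aminotransferase of the methionine chain elongation that leads to glucosinolates, had 7.35 and 7.46 in PAC+GA3+DEX seedlings and 9.05 and 9.26 in PAC+GA3 seedlings (log2 difference −1.74 ± 0.41 SE, adjusted p = 0.0107), and missed the threshold without PAC+GA3 array 2 (0.068) or without PAC+GA3+DEX array 2 (0.0576). Its replicates in these 2 groups were close, and its standard error pools the arrays of all groups. With DEX in wild type BCAT4 also differed by −1.12 and was not called, and its line minus wild type (−0.63) was not called either. AT3G44450, known as BIC2, an inhibitor of the blue light receptor cryptochrome, had 6.77 and 5.58 in PAC+GA3+DEX seedlings and 7.84 and 7.97 in PAC+GA3 seedlings. Its log2 difference of −1.73 became −1.13 without PAC+GA3+DEX array 2 (adjusted p = 0.0787) and −2.33 without PAC+GA3+DEX array 1. AT3G62550, a protein with a universal stress protein domain, had 9.46 and 7.97 in PAC+GA3+DEX seedlings and 10.66 and 10.57 in PAC+GA3 seedlings, and its log2 difference of −1.90 became −1.15 without PAC+GA3+DEX array 2 and −2.65 without PAC+GA3+DEX array 1. The MATE transporter AT3G23550, with a log2 difference of −1.94, missed the threshold without PAC+GA3 array 2 (−1.36, adjusted p = 0.106) or without PAC+GA3+DEX array 2 (adjusted p = 0.0755). AT1G73120 differed by −2.08, and by −1.30 without PAC+GA3 array 2 (adjusted p = 0.139), −2.85 without PAC+GA3 array 1, and missed the threshold without PAC+GA3+DEX array 1 (0.0619) or array 2 (0.0589). AT5G61590, a transcription factor of the AP2/ERF family, differed by −1.71, and by −1.06 without PAC+GA3 array 2 (adjusted p = 0.293), −2.37 without PAC+GA3 array 1, −1.42 without PAC+GA3+DEX array 1 (0.168) and −2.01 without PAC+GA3+DEX array 2 (0.0869).

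Most of the ribosome biogenesis factors tested rose. Of 19 ribosome biogenesis loci 9 had a tested probe set, 8 of the 9 were called higher and 0 lower, against 10.4% called higher over all probe sets, with a median log2 difference of 1.32, against −0.02 over all 9454. In all 9 both PAC+GA3+DEX arrays lay above both PAC+GA3 arrays, as in 30.2% of all probe sets. NRPA2, the second largest subunit of RNA polymerase I, which transcribes ribosomal RNA, had levels of 6.05 and 6.14 in PAC+GA3+DEX seedlings, against 4.35 and 4.19 in PAC+GA3 seedlings (log2 difference 1.83 ± 0.24 SE, adjusted p = 0.000305). Its largest subunit NRPA1 had 4.92 and 5.25 in PAC+GA3+DEX seedlings and 3.32 and 3.94 in PAC+GA3 seedlings. The 3 proteins of the PeBoW complex, which matures the large ribosomal subunit, all rose. The Pescadillo homologue AT5G14520 had 9.18 and 9.26 in PAC+GA3+DEX seedlings and 7.75 and 7.84 in PAC+GA3 seedlings. The WDR12 homologue AT5G15550 had 6.69 and 6.96 in PAC+GA3+DEX seedlings and 5.36 and 5.41 in PAC+GA3 seedlings. The BOP1 homologue AT2G40360 had 9.88 and 9.79 in PAC+GA3+DEX seedlings and 8.39 and 8.67 in PAC+GA3 seedlings. Proteins of the H/ACA particles that guide pseudouridylation of ribosomal RNA moved with them: the log2 difference was 1.32 for AT3G03920, the GAR1 homologue, and 1.19 for AT5G08180, the NHP2 homologue. The member that missed the threshold was AT3G05060, a protein of box C/D particles, with 8.34 and 9.57 in PAC+GA3+DEX seedlings against 7.48 and 8.03 in PAC+GA3 seedlings (log2 difference 1.20, adjusted p = 0.15). Between 7 and 8 of the 9 were called with any one of the 4 arrays left out. AT5G60990 was among those lost, with adjusted p values of 0.108 without PAC+GA3 array 1, 0.106 without PAC+GA3 array 2 and 0.171 without PAC+GA3+DEX array 2.

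The RNA helicases tested rose, while few cytosolic ribosomal proteins passed the test. The 3 RNA helicases tested by name were all called higher (median log2 difference 1.35). AT3G09720 had 5.08 and 5.32 in PAC+GA3+DEX seedlings, against 3.67 and 3.99 in PAC+GA3 seedlings (log2 difference 1.37 ± 0.22 SE, adjusted p = 0.00134). The calls of the other two members depended on single arrays: PRH75 had adjusted p values of 0.128 without PAC+GA3 array 1 and 0.152 without PAC+GA3+DEX array 2, and RH20 had 0.148 and 0.0951. Of 43 loci of cytosolic ribosomal proteins, a list drawn up after the values had been seen, 16 were tested, 2 were called higher and 0 lower, a share near the 10.4% over all probe sets, and the median log2 difference was 0.36. Both PAC+GA3+DEX arrays lay above both PAC+GA3 arrays in 14 of the 16, against 30.2% of all probe sets. AT5G59240, which encodes a protein of the small subunit, had the largest difference of them, with 7.00 and 7.60 in PAC+GA3+DEX seedlings against 5.22 and 5.12 in PAC+GA3 seedlings (log2 difference 2.13, adjusted p = 2.25e-05). The other called member, AT4G30800, had a log2 difference of 1.25 (adjusted p = 0.014) that missed the threshold with any one of the 4 arrays left out (0.051 to 0.0918). The chaperone gene Hsp70-2 had 6.07 and 6.60 in PAC+GA3+DEX seedlings and 4.70 and 4.56 in PAC+GA3 seedlings (log2 difference 1.71, adjusted p = 0.00106).

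Of the CC-type glutaredoxins, small redox proteins found in land plants, 9 of 19 loci were tested, 6 of the 9 rose and 0 fell, against 10.4% called higher and 7.66% lower over all probe sets. The median log2 difference was 1.27, and the members that missed the threshold included AT5G18600 (0.02) and AT1G06830 (−0.34, adjusted p = 0.36), whose levels were 7.52 and 7.14 in PAC+GA3+DEX seedlings and 7.80 and 7.56 in PAC+GA3 seedlings. After AT3G62930, the largest response was that of AT2G30540, with 6.66 and 6.88 in PAC+GA3+DEX seedlings and 4.55 and 4.55 in PAC+GA3 seedlings (log2 difference 2.22 ± 0.30 SE, adjusted p = 0.0004). The clustered genes AT4G15660, AT4G15680 and AT4G15700 had log2 differences of 1.27, 1.13 and 1.31, and AT4G15690 had 0.52 (adjusted p = 0.12). These are close copies of one another, so their probe sets may bind each other's transcripts and need not be separate measurements. AT1G03020 had 5.20 and 3.58 in PAC+GA3+DEX seedlings and 2.78 and 2.51 in PAC+GA3 seedlings, a log2 difference of 1.74 that was 2.55 without PAC+GA3+DEX array 2 and 0.93 without PAC+GA3+DEX array 1 (adjusted p = 0.13), and its adjusted p was 0.0643 and 0.096 without PAC+GA3 array 1 and array 2. Between 3 and 4 of the 9 were called with any one array left out: AT4G15680 was lost each time (0.0634 to 0.103), and AT4G15700 was lost without PAC+GA3 array 1 (0.0795), PAC+GA3 array 2 (0.0533) or PAC+GA3+DEX array 2 (0.131).

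**Figure D2:**
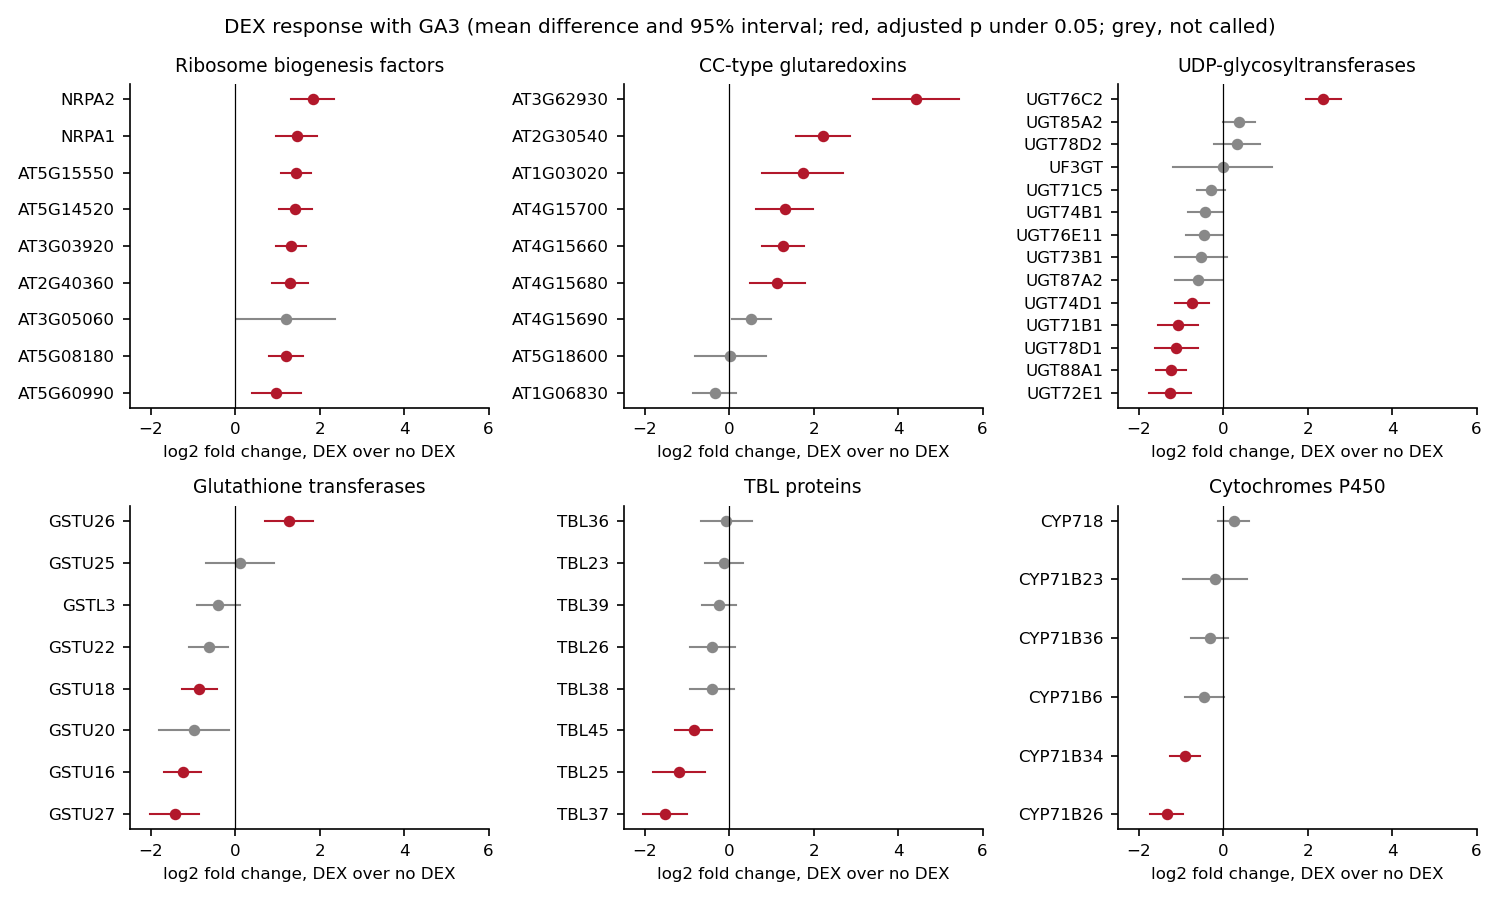
Log2 fold change of DEX over no DEX in ARR1ΔDDK:GR seedlings with GA3 (horizontal axis) for each tested member of 6 gene groups, as the mean difference with its 95% interval. Red members passed an adjusted p under 0.05 and grey ones did not, and the ribosome biogenesis factors lie between 0.97 and 1.83 while most UDP-glycosyltransferases, glutathione transferases and TBL proteins lie below 0. The TBL list was added after the values had been seen.

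Of 14 UDP-glycosyltransferases tested, which attach sugars to small molecules, 1 (UGT76C2) was called higher and 5 lower, against 10.4% higher and 7.66% lower over all probe sets, with a median log2 difference of −0.50. UGT88A1 had 6.31 and 5.93 in PAC+GA3+DEX seedlings, against 7.29 and 7.46 in PAC+GA3 seedlings (log2 difference −1.25 ± 0.16 SE, adjusted p = 0.00032). UGT72E1, which glucosylates lignin precursors, had 3.02 and 3.50 in PAC+GA3+DEX seedlings and 4.58 and 4.47 in PAC+GA3 seedlings. UGT78D1, which adds rhamnose to flavonols, had 5.31 and 5.34 in PAC+GA3+DEX seedlings and 5.98 and 6.90 in PAC+GA3 seedlings. In each of these the groups did not overlap, as in all 1707 probe sets called. UGT71B1 differed by −1.07, and UGT74D1 by −0.75, a call that was lost without PAC+GA3 array 2 (adjusted p = 0.128) or PAC+GA3+DEX array 2 (0.0823). Of 8 glutathione transferases, which conjugate glutathione to reactive compounds, 1 was called higher and 3 lower (median log2 difference −0.75). GSTU16 had 3.57 and 3.69 in PAC+GA3+DEX seedlings and 4.83 and 4.93 in PAC+GA3 seedlings, while GSTU26 ran the other way with 5.25 and 4.98 in PAC+GA3+DEX seedlings and 3.97 and 3.72 in PAC+GA3 seedlings. With DEX in wild type GSTU26 also differed by 1.07 and was not called. The line minus wild type was 0.20 for GSTU26 and was not called either. GSTU27 differed by −1.44, and GSTU18 by −0.86, with adjusted p values of 0.0874 without PAC+GA3 array 1 and 0.0937 without PAC+GA3+DEX array 2. Of 6 cytochromes P450, 0 were called higher and 2 lower, CYP71B26 by −1.34 and CYP71B34 by −0.91. The list of class III peroxidases was drawn from the descriptions in the annotation, and of its 4 tested members 1 was called lower, PRXR1, with 8.54 and 7.96 in PAC+GA3+DEX seedlings and 9.61 and 9.65 in PAC+GA3 seedlings. That list does not hold all of the family: AT3G01190, a leading decrease, was called lower (−1.77), and AT1G68850, chosen after its values were seen, was called higher, with 3.55 and 3.86 in PAC+GA3+DEX seedlings and 2.69 and 2.67 in PAC+GA3 seedlings (log2 difference 1.03, adjusted p = 0.0033). AT1G68850 was also called higher with DEX in wild type, by 1.20, and the line minus wild type (−0.17) was not called.

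Of 10 greening loci PORB was the 1 tested by name, and it fell. PORB, which reduces protochlorophyllide to chlorophyllide in the light, had 5.97 and 5.61 in PAC+GA3+DEX seedlings, against 6.95 and 7.41 in PAC+GA3 seedlings (log2 difference −1.39 ± 0.19 SE, adjusted p = 0.000411). Of 5 nuclear photosystem genes 0 were called higher and 2 lower (7.66% over all probe sets), both coding for CP29 antenna proteins. LHCB4.2 had 8.44 and 7.19 in PAC+GA3+DEX seedlings and 9.23 and 9.06 in PAC+GA3 seedlings, and its log2 difference of −1.33 was −1.95 without PAC+GA3+DEX array 1 and −0.70 without PAC+GA3+DEX array 2 (adjusted p = 0.171), with adjusted p values of 0.102 and 0.0575 without PAC+GA3 array 1 and array 2. LHCB4.3 differed by −0.51 and missed the threshold with any one array left out (0.0645 to 0.265). PSBW, PSBY and LHCB4.1 differed by −0.19, −0.33 and −0.19 and were not called. Transcripts of the plastid genome were not called in either direction by limma: of 59 tested, 0 passed and 0 had an unadjusted p under 0.05, and their log2 differences ranged from −0.43 to 0.67 with a median of 0.00. Trichome birefringence-like (TBL) proteins, several of which acetylate cell wall polymers, were a list added after the values had been seen. Of 8 tested, 0 were called higher and 3 lower. TBL37 had 3.62 and 3.47 in PAC+GA3+DEX seedlings and 4.90 and 5.24 in PAC+GA3 seedlings, whereas TBL25 and TBL45 missed the threshold without PAC+GA3 array 1 (0.11 and 0.105) or without PAC+GA3+DEX array 2 (0.134 and 0.151). Of 2 pectin methylesterases tested PMEPCRF was called lower, with 3.88 and 3.56 in PAC+GA3+DEX seedlings and 4.95 and 5.17 in PAC+GA3 seedlings, while ATPMEPCRB had 4.15 and 6.32 in PAC+GA3+DEX seedlings and 4.66 and 4.36 in PAC+GA3 seedlings and was not called (log2 difference 0.73, adjusted p = 0.4). The pectin lyase-like AT3G15720 was among the leading increases given above. Of 4 xyloglucan endotransglucosylases 1 was called in each direction, XTH20 by 0.70 and XTH16 by −0.98. Both calls were lost with single arrays left out. For XTH20 this held with any of the 4 (log2 differences of 0.60 to 0.81). For XTH16 it held without PAC+GA3 array 1 (−0.85) or PAC+GA3+DEX array 2 (−0.84). With DEX in wild type XTH20 also differed by 0.93 and was not called. Neither gene was called for the line minus wild type, which was −0.23 for XTH20.

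Calls in the families that follow are to be read against the 18.1% called in either direction over all probe sets. The SWEET and aldehyde dehydrogenase lists were added after the values had been seen. SWEET1, a sugar transporter, had 2.95 and 2.49 in PAC+GA3+DEX seedlings and 3.67 and 4.11 in PAC+GA3 seedlings, and was the 1 called of 4 SWEET genes tested. ALDH11A3, an aldehyde dehydrogenase, had 6.14 and 6.00 in PAC+GA3+DEX seedlings and 7.07 and 7.11 in PAC+GA3 seedlings, and 2 of 8 members of its family were called lower, the other being ALDH3F1 (−0.55), which was lost without PAC+GA3 array 1 (0.328) or either PAC+GA3+DEX array (0.107 and 0.165). Of 4 bHLH factors bHLH115 was called lower, with 5.43 and 5.29 in PAC+GA3+DEX seedlings and 6.29 and 6.28 in PAC+GA3 seedlings. The cell cycle list had 3 tested members, and PRL, the MCM7 subunit of the replicative helicase, had 5.96 and 6.14 in PAC+GA3+DEX seedlings and 4.95 and 5.03 in PAC+GA3 seedlings (log2 difference 1.06, adjusted p = 0.00585, and 0.0576 without PAC+GA3+DEX array 2), while the mitotic kinases AUR1 and AUR2 differed by −0.27 and −0.12 and were not called. Neither gibberellin gene that could be tested was called: SLY1, the F-box protein that targets DELLAs, differed by −0.23 and XERICO, a RING protein that DELLAs promote, by −0.01. GI, a clock component, had 6.29 and 5.45 in PAC+GA3+DEX seedlings and 5.13 and 4.95 in PAC+GA3 seedlings, with an adjusted p of 0.0616. Of the 6 genes that the study followed up, which were picked on these samples, 2 were tested, and their values are not independent evidence. DECOY had 6.58 and 6.59 in PAC+GA3+DEX seedlings and 6.08 and 5.64 in PAC+GA3 seedlings (adjusted p = 0.0201, and 0.0648 to 0.179 without PAC+GA3 array 2 or either PAC+GA3+DEX array), and AT1G07830 differed by 0.32 (adjusted p = 0.329).

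Part of the DEX response was also present in wild type seedlings, which lack the fusion protein. In wild type 70 probe sets (0.74%) were called, 62 higher (0.656%) and 8 lower (0.0846%). Of the 62, 44 were also called higher in the line with GA3, which was 71.0% of the wild type list and 4.48% of the 983 of the line. Of the 8, 7 were also called lower, 87.5% of the wild type list and 0.967% of the 724. The 2 comparisons have no array in common, but their tests share the spread estimated from all 16 arrays. Among the 15 leading increases 7 were called higher in wild type, and among the 12 leading decreases 1 was called lower. AT4G11190, a dirigent protein, had log2 differences of 3.28 in the line and 3.81 in wild type. AT5G38020, a SABATH methyltransferase, had 3.39 in the line and 4.11 in wild type, where its value was 4.78 without the first DEX array and 3.45 without the second. AT1G14960 had 2.93 in the line and 2.85 in wild type. These genes responded to DEX in both genotypes. The BAHD acyltransferase AT5G47980 had 2.52 in the line and 2.69 in wild type, AT5G26260, with a TRAF-like domain, had 2.25 and 2.67, and AT3G45710, a member of the nitrate and peptide transporter family, had 2.32 and 1.95. The class III peroxidase AT3G01190 was lower with DEX in both, by −1.77 in the line and −1.78 in wild type. RR16 was the seventh, with levels of 5.08 and 5.64 in wild type with DEX and 4.28 and 3.99 in untreated wild type (log2 difference 1.22, adjusted p = 0.048). That call was lost without the second DEX array (adjusted p = 0.62) or either untreated array (0.151 and 0.413), as was that of AT3G45710 (0.117, 0.0851 and 0.0583).

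The response of the line with GA3 minus the response of wild type was tested directly. It was called for 485 probe sets (5.13%), 352 with a more positive response in the line (3.72%) and 133 with a more negative one (1.41%). Of the 352, 350 were among those called higher in the line, and of the 133, 123 were among those called lower. This test includes the same PAC+GA3+DEX and PAC+GA3 arrays, so much of that overlap is built in. RR16 kept a difference of 3.87 between the responses (adjusted p = 0.00029), AT3G62930 4.58 and ARR15 4.18. UGT76C2 differed by 2.14. For the other 6 leading increases also called in wild type, the adjusted p of the difference missed the threshold, and the differences ran from −0.72 for AT5G38020 to 0.38 for AT3G45710. AT5G58570 was the gene called in opposite directions. In the line it had 3.32 and 3.31 in PAC+GA3+DEX seedlings against 4.96 and 4.65 in PAC+GA3 seedlings, and in wild type 5.10 and 5.19 with DEX against 3.54 and 4.01 untreated, a difference of −2.86 between the responses. Of the 9 ribosome biogenesis factors 7 were called in this comparison. The 7 became 1 (AT5G15550) without the second wild type DEX array, the first untreated wild type array or PAC+GA3+DEX array 2, 3 and 5 without PAC+GA3 array 1 or array 2, and 4 without the second untreated array, and it was 3 without the filter on dim probe sets. In wild type itself 0 of the 9 were called by limma (0 with an unadjusted p under 0.05). Of the 9 CC-type glutaredoxins 2 were called for the line minus wild type, AT3G62930 and AT4G15660, against 3.72% over all probe sets. In wild type 0 of these 9 glutaredoxins were called by limma (1 with an unadjusted p under 0.05). The wild type seedlings had no PAC and no GA3, so genotype and hormone background cannot be told apart here. The count was lower without the second wild type DEX array (68), either untreated wild type array (92 and 176), either PAC+GA3 array (165 and 157) or PAC+GA3+DEX array 2 (89).

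**Figure D3:**
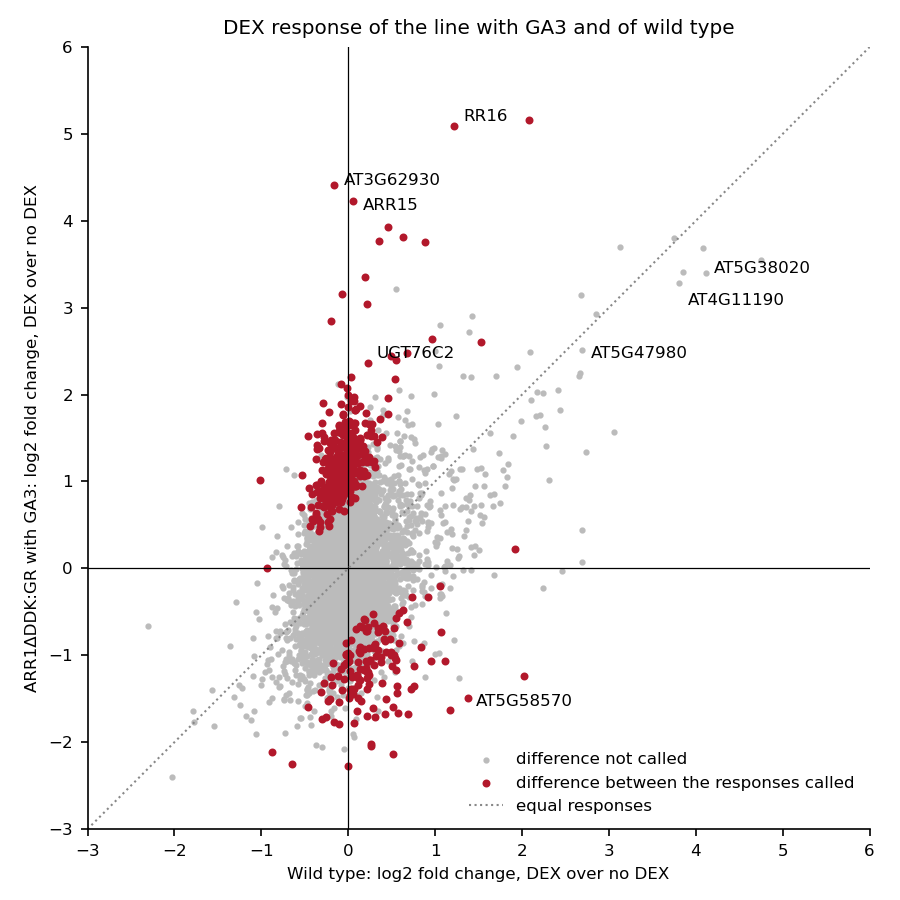
Log2 fold change of DEX over no DEX in the line with GA3 (vertical axis) and in wild type (horizontal axis) for the 9454 probe sets tested. Red points passed the test of the difference between the responses (485), grey points did not, and the dotted line marks equal responses: RR16, AT3G62930 and ARR15 lie far above it, AT4G11190, AT5G38020 and AT5G47980 close to it, and AT5G58570 on opposite sides of 0.

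Whether the response depended on GA3 was asked by setting it against the response in PAC without GA3, where 1648 probe sets (17.4%) were called, 862 higher (9.12%) and 786 lower (8.31%). The difference between the responses was called for 0 of 9454 probe sets by limma (0.0%), and 188 had an unadjusted p under 0.05. The median half-width of the 95% interval of this difference was 0.622 on the log2 scale over all probe sets, and 28 probe sets had a difference over 1 in either direction without passing the adjustment. Without the filter on dim probe sets 24 were called. Of the 983 called higher with GA3, 695 were called higher in PAC, 70.7% of the first list and 80.6% of the second. Of the 724 called lower, 499 were called lower in PAC, 68.9% of the first list and 63.5% of the second. No probe set was called in opposite directions. These comparisons have no array in common, but their tests share the spread estimated from all 16 arrays, so the lists are not fully independent.

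For the 27 leading genes the 95% interval of the difference held 0 in all 27, with differences from −0.46 to 1.24 and half-widths of 0.596 to 2.03. RR16 responded by 5.10 with GA3 and 5.00 in PAC, with levels of 9.88 and 9.90 in PAC+DEX seedlings and 4.67 and 5.11 in PAC seedlings. ARR15 responded by 4.23 with GA3 and 3.33 in PAC, with levels of 6.37 and 5.89 in PAC+DEX seedlings and 2.87 and 2.72 in PAC seedlings. UGT76C2 responded by 2.37 with GA3 and 1.88 in PAC. Of the 6 leading probe sets without a single gene, 248729_at and 257008_at had intervals that did not hold 0, and neither passed the adjustment. For 248729_at the difference was 1.24 (0.594 to 1.88, unadjusted p = 0.00119), with levels of 5.47 and 5.55 in PAC+DEX seedlings and 2.85 and 3.05 in PAC seedlings. For 257008_at, which responded by −2.27 with GA3 and −3.11 in PAC, it was 0.84 (0.200 to 1.48, unadjusted p = 0.0141). The difference between the responses was positive in 10 of the 15 leading increases and negative in 8 of the 12 leading decreases, genes that were chosen on the response with GA3. In PAC 14 of the 15 and 11 of the 12 were called, the exceptions being AT5G52760 (1.67, adjusted p = 0.11) and AT5G61590 (−1.42, adjusted p = 0.082). Ribosome biogenesis factors were called higher in 8 of 9 in both backgrounds, with median log2 differences of 1.32 with GA3 and 1.14 in PAC. CC-type glutaredoxins were called in 6 of 9 with GA3 and 2 of 9 in PAC, with medians of 1.27 and 0.58, and by limma the difference was called in 0 of the 9 (0 with an unadjusted p under 0.05). Transcripts of the plastid genome, a list added after the values had been seen, are given as a description only. In PAC 1 of the 59 had a positive response to DEX (median log2 difference −0.43, 1 called lower), with GA3 28 of the 59 did (median 0.00), and the difference was positive in 56 of the 59 (median 0.45, against 0.02 over all probe sets). By limma 0 of these differences were called and 6 had an unadjusted p under 0.05, and transcripts of 1 small genome are not independent measurements.

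**Figure D4:**
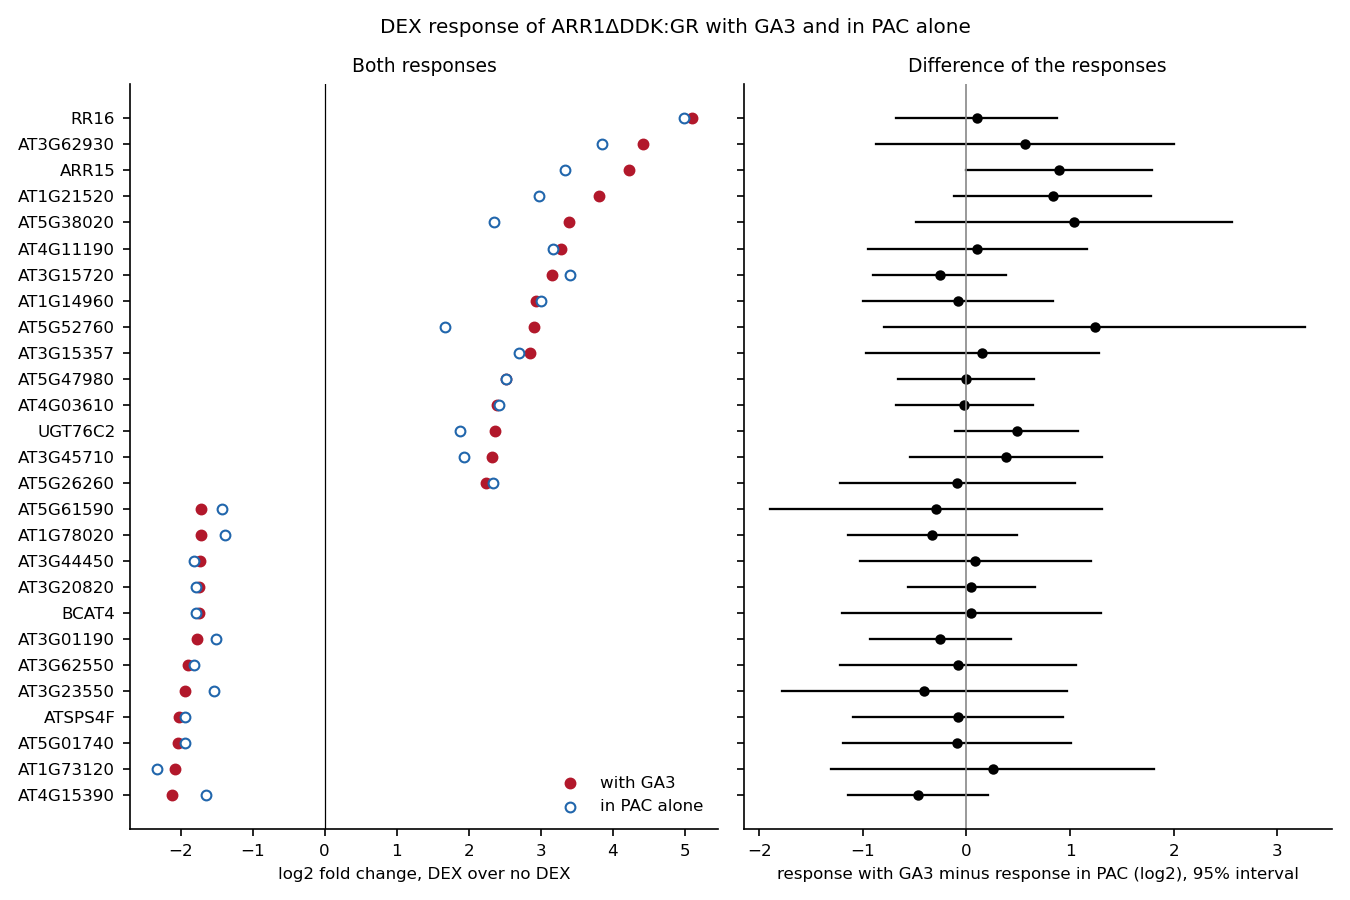
Left, log2 fold change of DEX over no DEX for the 27 leading genes, with GA3 (filled red) and in PAC alone (open blue). Right, the response with GA3 minus the response in PAC (log2) with its 95% interval, which includes 0 for each of the 27 genes.

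Among probe sets with a single gene, the 5 smallest unadjusted p values of that difference did not pass the adjustment (the smallest adjusted p over all probe sets was 1.00). AT5G60400 (unadjusted p = 0.000895) had 4.83 and 4.78 in PAC+GA3+DEX seedlings, 4.98 and 4.88 in PAC+GA3 seedlings, 4.94 and 4.95 in PAC+DEX seedlings and 5.93 and 5.90 in PAC seedlings. Its PAC level stood apart from the other groups, so the responses were −0.13 with GA3 and −0.97 in PAC. AT5G58570 (unadjusted p = 0.00133) responded by −1.49 with GA3 and −2.56 in PAC. AT5G62340, of the invertase and pectin methylesterase inhibitor family, responded by −1.41 with GA3 and −0.34 in PAC (unadjusted p = 0.00282). AT3G50550 (0.19 with GA3, −0.77 in PAC) and AT5G49100 (0.34 with GA3, −0.46 in PAC) had a positive difference in the response with GA3 and a negative one in PAC.

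The PAC+GA3+DEX arrays differed from each other in a set of genes, which were picked out after their values had been seen. Among the 983 probe sets called higher, 30 were more than 1 log2 unit higher on array 2 than on array 1 and 3 were more than 1 lower. Among the 724 called lower, 0 were more than 1 higher on array 2 and 24 were more than 1 lower. Over all 9454 probe sets tested 220 were more than 1 higher and 68 more than 1 lower on array 2. Between the 2 PAC+DEX arrays these counts were 139 and 99. The median absolute difference between replicates was 0.228 for PAC+DEX and 0.202 for PAC+GA3+DEX. In the same 983 probe sets, 7 were more than 1 higher and 2 more than 1 lower on PAC+DEX array 2, and in the 724, 2 and 4 were. The wider responses on array 2 included the heavy metal-associated domain genes AT5G52760 and AT5G52750. With DEX in wild type AT5G52750 differed by 1.41 and was not called, and its line minus wild type (0.80) was not called either. AT5G52750 had 4.86 and 7.49 in PAC+GA3+DEX seedlings and 3.35 and 4.59 in PAC+GA3 seedlings (2.20, and 0.89 without PAC+GA3+DEX array 2, adjusted p = 0.383, 3.52 without PAC+GA3+DEX array 1, and 1.58 and 2.83 without PAC+GA3 array 1 and array 2). AT2G39210 had 5.44 and 7.50 in PAC+GA3+DEX seedlings and 4.65 and 4.64 in PAC+GA3 seedlings, a log2 difference of 1.83 that was 0.79 without PAC+GA3+DEX array 2 (adjusted p = 0.237) and 2.86 without PAC+GA3+DEX array 1, with adjusted p values of 0.109 and 0.0967 without PAC+GA3 array 1 and array 2. WRKY53, a transcription factor of senescence and defence, had 4.49 and 6.95 in PAC+GA3+DEX seedlings and 3.71 and 4.19 in PAC+GA3 seedlings and was not called (adjusted p = 0.072). Among the decreases LHCB4.2, AT3G62550 and AT3G44450 were further down on array 2, as their values above show.

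**Figure D5:**
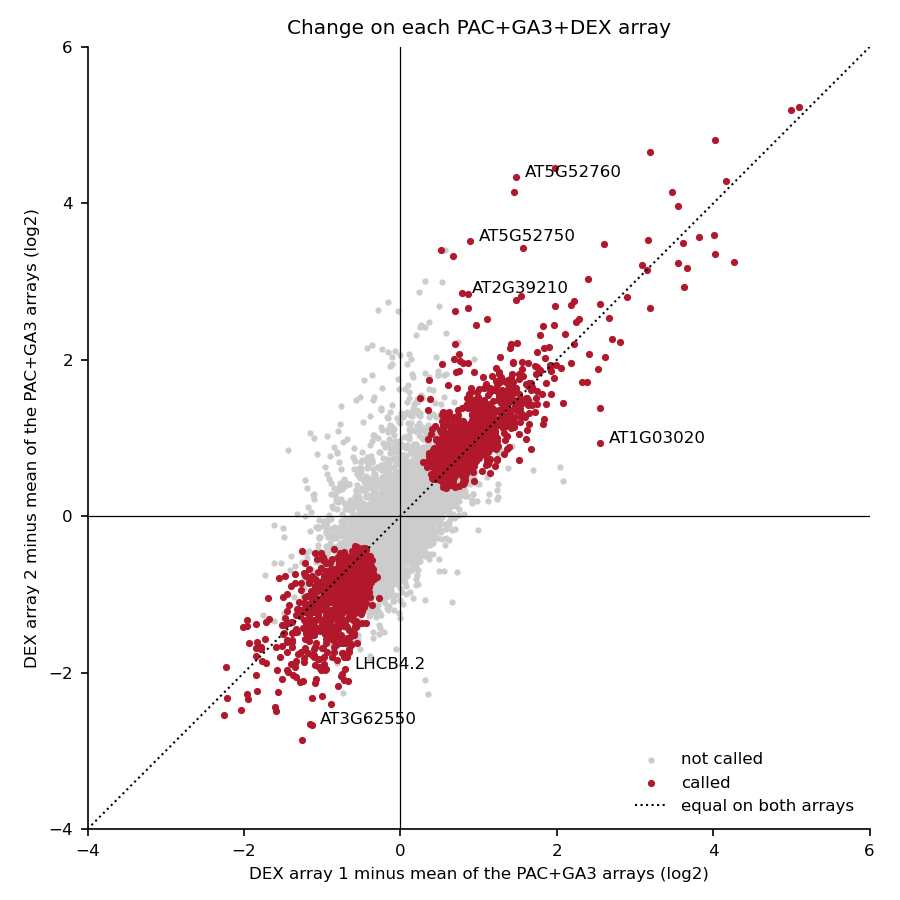
Change of each of the 9454 probe sets on PAC+GA3+DEX array 2 (vertical axis) and array 1 (horizontal axis), each as the log2 level minus the mean of the 2 PAC+GA3 arrays, with called probe sets in red and others in grey. The dotted line marks equal change on both arrays, and AT5G52760, AT5G52750 and AT2G39210 lie above it while LHCB4.2, AT3G62550 and AT1G03020 lie below it.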

How the data were processed

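Log2 expression values per probe set on 16 Affymetrix ATH1 arrays were deposited by the authors, made with GCRMA, a method that subtracts background, puts arrays on a common scale and combines each set's probes. Its version is not given in the sources used here. From 22810 probe sets the Affymetrix controls were left out (22746 left), and a probe set was tested where 2 or more of the 16 arrays had a value of 4 or above (9454, with 13292 left out as dim). The probe sets next to that limit had a second highest value of 4.000448 (inside) and 3.999938 (outside). Names came from the platform annotation: of the 22746, 13513 had 1 gene, 503 several and 8730 none, and 4529 of those tested carry no gene name. Of 294 loci in lists by locus, 60 were named on the array and 43 could be tested.

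Group means were fitted to all 16 arrays with limma 3.58.1 in R 4.3.3 (eBayes), with 8 residual and 4.66 prior degrees of freedom. Two-sided p-values were adjusted over the 9454 by Benjamini-Hochberg, and a probe set was called under 0.05. The contrasts were DEX over no DEX in the line with GA3, in PAC and in wild type, and the first minus each of the others. The model was also run on simulated arrays with independent noise, a setting that gives no error rate for the arrays used here. The named genes were the 15 highest and 12 lowest called with both arrays of one group on one side, 3 and 3 without a single gene, the 5 highest and 5 lowest net of wild type, the 5 smallest p of the difference from PAC, up to 4 members per list, and genes the study followed up. Other list members named, and the genes of the PAC+GA3+DEX arrays that differ, were chosen after their values were seen. Members and lists were chosen with earlier results of these data known, and 11 of 53 lists were added later. Alternatives were a floor of 6 or no filter, centring on the 75th percentile, quantile normalization, robust or trended eBayes, a block for the replicate number, a fit of a comparison's own arrays, each array left out (its lone replicate taken to vary like the other groups), and a Z test at 1.96, one reading of the study's Z-score method. The number of arrays limits the precision. Figures were drawn with matplotlib 3.10.9.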

Additional observations from a re-analysis of the deposited data

Results flagged for a closer look

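The response of the line with GA3 and that of wild type differed by the test of the difference itself for 485 probe sets, and 39 of the genes and probe sets named here were among them, 6 of which are list members outside the rule for named genes. The wild type seedlings had neither PAC nor GA3, so genotype and hormone background cannot be told apart in these values, which are log2 differences between the responses, line minus wild type. Of the leading increases, AT3G62930 differed by 4.58, ARR15 by 4.18, RR16 by 3.87, AT3G15720 by 3.23, AT1G21520 by 3.18, AT3G15357 by 3.05, UGT76C2 by 2.14 and AT4G03610 by 1.85. The probe sets 247949_at and 252374_at, which have no single gene, differed by 3.47 and 3.09. Ribosome biogenesis factors followed, with NRPA2 at 1.74, NRPA1 at 1.56, AT2G40360 at 1.28, AT5G08180 at 1.20, AT5G15550 at 1.44, AT5G14520 at 1.44 and AT3G03920 at 1.16. Of the 3 RNA helicases tested 1 was among them, AT3G09720 at 1.60. The ribosomal protein AT5G59240 differed by 2.21 and the glutaredoxin AT4G15660 by 1.51.

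Among the decreases, AT5G58570 differed by −2.86, AT1G80130, a tetratricopeptide repeat protein, by −2.37, ATSPS4F by −2.29, AT5G52450, a MATE transporter, by −2.12, AT1G07280 by −2.09, AT1G78020 by −2.02, AT3G20820 by −1.44 and AT4G15390 by −1.24. The unnamed 257008_at and 247549_at differed by −2.27 and −1.61. PORB and PMEPCRF each differed by −1.46, PRXR1 by −1.42, TBL37 by −1.68, UGT78D1 by −1.42, UGT71B1 and GSTU16 each by −1.29, CYP71B26 by −1.15 and UGT88A1 by −1.05. Of the 33 that the rule chose, 11 were called under each limma alternative that tested them: RR16, AT3G62930, ARR15, AT1G21520, AT3G15720, AT4G03610, UGT76C2, AT5G15550, AT5G58570, 252374_at and 257008_at. Of these, AT4G03610, UGT76C2 and AT5G58570 were not tested under every alternative.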

How the results depend on the processing

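The number of calls moved more than the named genes did. For DEX with GA3, 1707 calls became 909 with a floor of 6, 1128 with only the arrays of the comparison, 548 with the Z test, and 694 to 1492 with an array left out. For the line minus wild type, 485 became 307 with a floor of 6, 301 with no filter, and 68 to 464 with an array left out. The difference from PAC had 24 calls with no filter and 0 under the other settings. DEX in PAC, with 1648, gave 944 with a floor of 6, 412 with only its own arrays and 880 to 1356 with an array left out. DEX in wild type, with 70, gave 41 with a floor of 6, 38 with only its own arrays and 29 to 72 with an array left out. With the replicate number as a block the counts were 1948 for DEX with GA3, 586 for the line minus wild type, 0 for the difference from PAC, 1888 for DEX in PAC and 85 for wild type. The block added calls for 7 list members that had none with GA3, among them AT3G05060 (adjusted p = 0.00841), GI (0.00711) and WRKY53 (0.0204), and took none away from the members named. The labels do not say that a number marks shared samples, and deviations of same-numbered arrays correlated at 0.405 between PAC+GA3+DEX and PAC+GA3 and from −0.331 to 0.480 over all pairs of groups.

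Of the 33 leading genes and probe sets of the DEX response with GA3, 26 kept their call wherever they were tested. AT5G52760, AT1G73120, AT3G23550, AT3G62550, BCAT4, AT3G44450 and AT5G61590 lost it in at least 1 setting, 6 without PAC+GA3+DEX array 2, 5 without PAC+GA3 array 2 and 5 with no filter. No named value changed direction where it was called. With 2 arrays per group, the median half-width of the 95% interval of the DEX response with GA3 was 0.440.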
